A study of Mus musculus with 23 samples.

Results

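The 35 genes described here act in homologous recombination, the Fanconi anemia pathway, replication and break checkpoints, or the protection of broken DNA ends. They were listed by symbol, and all 35 were among the 14535 genes of the expression table. Of these, 28 passed the filter of a mean FPKM of 1 or more over all tumors and were tested with 12041 genes in all. Rad51c, Blm, Brip1, Fancb, Fancd2, Fanci and Fancm did not pass it. The question was which of these genes leave the common relation to proliferation, read from the marker gene Mki67, and which are lost or gained in a single tumor.

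Bulk RNA sequencing was done on 23 primary mammary tumors of Brca1-deficient mice, all in 1 labelled group. In the mouse models of the study, Cre recombinase driven by the MMTV promoter deletes floxed Brca1 (MMTV-Cre; Brca1 fl/fl), in some mice together with a floxed copy of Trp53 (Trp53 fl/+), on a mixed strain background. Which tumor carried the Trp53 allele is not in the labels, ages are not given there, and no groups were made from labels. A split of the tumors by immediate-early genes, described below, came from the data themselves. Pieces of whole tumor were used, so host cells are included, and fewer cells of a type cannot be told apart from less RNA per cell. The titles hold 19 numbers, and 4 of them name 2 tumors each (X1310T1 and X1310T2, for example). Separate mice are stated nowhere for the tumors, and p-values therefore measure only the spread between these samples.

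Homologous recombination repairs a double-strand break from the sister chromatid. The MRE11, RAD50 and NBN complex with CtIP, encoded by Rbbp8, trims the ends, RPA coats the single strand, and BRCA1 and BRCA2 act in the steps that lead to strand exchange. The Fanconi proteins act on DNA crosslinks, while 53BP1, RIF1 and REV7, encoded by Mad2l2, shield ends from trimming. Loss of that shield is known to restore recombination in Brca1-deficient cells and to make them tolerate PARP inhibitors.

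All values are log2(FPKM + 1), where FPKM is the fragments of a gene scaled by transcript length and by how many fragments of that library mapped. Because FPKM keeps no counts, the depth of each library is unknown. Epithelial markers were present in the series as a whole, with a summed level between 5.92 and 12.57 on the log2 scale over tumors, and all 10 fibroblast and 10 macrophage markers were in the table. Epcam, Krt8 or Krt18 was low in some tumors, and Epcam was listed at 0 in X520T. Brca1 itself lay between 0 (X1310T1) and 2.26 (X2265T), with a median of 1.20. A gene-level value does not show whether the deleted exons are missing. In X149T2 the summed FPKM was 1677863, against 387531 to 706401 in the other tumors.

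The members differed widely in level. The single-strand binding subunit Rpa3 had the highest median, 5.21, followed by Parp1, the break sensor targeted by PARP inhibitors, at 4.33. Among Rad51b, Rad51c, Rad51d, Xrcc2 and Xrcc3, whose proteins form complexes with each other in recombination, the medians ran from 0 for Rad51c to 1.95 for Xrcc3. Of the Fanconi core complex, which ubiquitinates FANCD2 and FANCI, Fancb had a median of 0 and Fance of 3.32. The substrates themselves were low, with medians of 0.64 for Fancd2 and 0.02 for Fanci. Among strand exchange factors and helicases the medians ran from 0 for Brip1, a helicase bound by BRCA1, to 1.05 for Rad54b. The checkpoint kinases ranged from 0.78 for Atr to 2.17 for Chek2, the resection factors from 0.92 for the nuclease Exo1 to 3.0 for Rbbp8, and the end-protection genes from 2.28 for Rif1 to 3.44 for Mad2l2.

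An exact 0 can be a failed estimate, and 19 of the 35 members were listed at 0 in 1 or more tumors. Rad51c and Brip1 were listed at 0 in 13 tumors each, Fancb in 12 and Fanci in 11. The other 16 members, among them all 3 RPA subunits, Trp53bp1, Mad2l2, Parp1 and the resection genes Mre11a, Rad50, Nbn and Rbbp8, were above 0 in every tumor. By tumor, 10 members were listed at 0 in X1515T and 9 in X1418T, while none was in X2265T, X9387T or X437T.

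**Figure D1:**
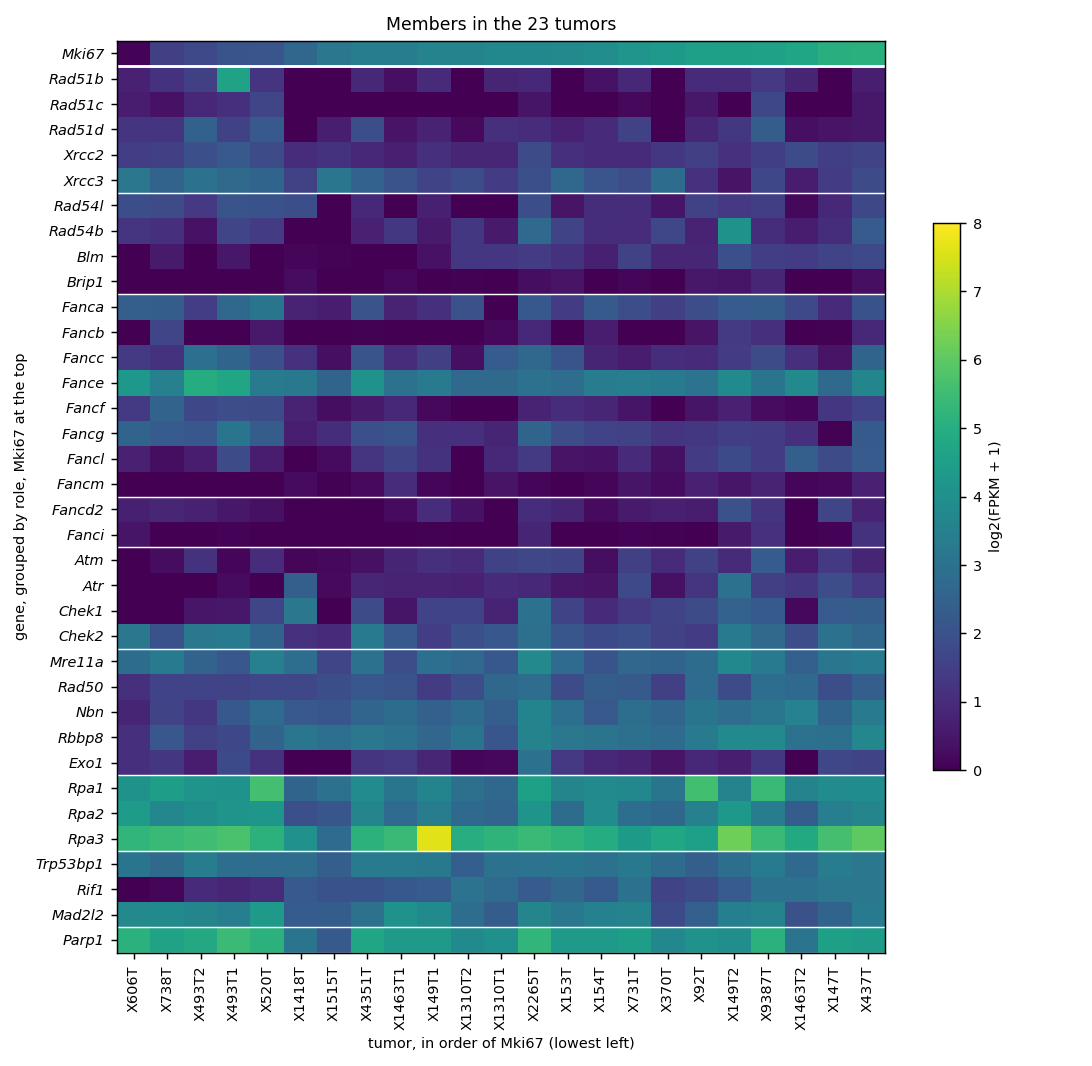
Values of the 35 members and of Mki67 (rows, grouped by role) in the 23 tumors (columns, in order of Mki67, lowest at the left), as log2(FPKM + 1). Rpa3 in X149T1 (7.63), Rad51b in X493T1 (4.60) and Rad54b in X149T2 (4.12) stand out from their rows, and Rif1 is low in the 5 tumors with the lowest Mki67.

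Mki67 ran from 0.08 in X606T through a median of 3.74 to 5.09 in X437T. A slope on Mki67 was fitted for every tested gene with limma over the 23 tumors, per SD of Mki67 (1.25 on the log2 scale), with Benjamini-Hochberg adjustment over 12040 genes and a threshold of 0.05. Of the 28 tested members, 5 rose with Mki67 and 1 fell. Of all tested genes, 7.08% rose (852) and 6.70% fell (807). The median slope was -0.08 over the members and -0.10 over all genes, so the members' median lay near that of all genes. At an unadjusted p under 0.05 there were 13 members, beside 31.4% of all genes. The counts rest on the tumors with the lowest Mki67. Without X606T, 408 genes rose and 203 fell, and of the members Rif1, Rbbp8 and Nbn rose and none fell. Without X606T and X738T, 118 genes rose and 41 fell, and Rif1 was the 1 member that rose. With 1 tumor per title number, Rif1, Rbbp8 and Nbn rose, whereas Atr (limma adjusted p = 0.135), Rad50 (0.0832) and Xrcc3 (0.0923) missed the threshold. With tumors centred on their medians 1253 genes rose and 772 fell, and with a pseudocount of 0.1 the counts were 876 and 516.

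The members that rose were the end-protection gene Rif1, the resection genes Rbbp8, Nbn and Rad50, and the checkpoint kinase Atr. Rif1 ran from 0 in X606T through a median of 2.28 to 3.18 in X437T. The 5 tumors with the lowest Mki67 (X606T, X738T, X493T2, X493T1 and X520T) had 0, 0.14, 0.94, 0.86 and 1.01, below all other tumors, the lowest of which was X370T at 1.63. Its slope was 0.81 (SE 0.11, limma adjusted p = 7.9e-05), the largest among the members. RIF1 is the effector that 53BP1 recruits to block resection.

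Rbbp8 ran from 1.09 in X606T through 3.0 to 3.84 in X149T2, with a slope of 0.57 (SE 0.10, limma adjusted p = 0.000514). Nbn, the subunit that carries the MRE11 complex to the nucleus and activates ATM, ran from 0.84 in X606T through 2.62 to 3.61 in X2265T, and its slope was 0.53 (SE 0.10, limma adjusted p = 0.00078). Rad50, the ATPase of that complex, ran from 1.09 in X606T through 1.91 to 2.89 in X9387T. Its slope was 0.33 (SE 0.10, limma adjusted p = 0.0272). X606T, the tumor with the lowest Mki67, thus held the lowest value of Rif1, Rbbp8, Nbn and Rad50, and also of the kinase gene Atm. With tumors centred on their medians, these members and also Atr and Chek1 were lowest in X606T, beside 8.25% of all tested genes.

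Atr, which senses RPA-coated strands, was listed at 0 in 4 tumors, had a median of 0.78 and reached 2.98 in X149T2. Its slope was 0.48 (SE 0.15, limma adjusted p = 0.0327). Chek1, the kinase downstream of ATR, had the same slope of 0.48 but a wider error (SE 0.18, limma adjusted p = 0.072), so it did not pass. Chek1 and Atm did pass with a pseudocount of 0.1 (limma adjusted p = 0.0325 and 0.0282) and with tumors centred on their medians (0.039 and 0.0286).

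The 1 member that fell with Mki67 was Xrcc3, whose protein acts in a complex with that of Rad51c. It was 3.18 in X606T, its highest value, without which it missed the threshold (limma adjusted p = 0.0526), with a median of 1.95 and a lowest value of 0.41 in X149T2. Its slope was -0.50 (SE 0.13, limma adjusted p = 0.0126). Xrcc3 and Atr also formed the most negative pair of all 378 pairs of tested members, with r = -0.80 across the 23 tumors, and -0.73 after the centring on GC content described below.

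The other 22 tested members did not pass. In the core complex, the 2 with the most negative slopes were Fancg at -0.40 (95% interval -0.68 to -0.11) and Fancf at -0.39 (-0.67 to -0.10), with limma adjusted p = 0.0559 and 0.0631. Fance (-0.29), Fanca (-0.17) and Fancc (-0.16) also had negative slopes, while Fancl, the ubiquitin ligase of the complex, had 0.33. Of the genes grouped with Xrcc3, Rad51b had -0.29, Rad51d -0.25 and Xrcc2 -0.09. Of the strand exchange factors, Rad54l had -0.28 and Rad54b 0.22. The apical kinase gene Atm had 0.33, and Chek2 had -0.14.

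Of members that work together, some passed with Mki67 while others did not, which does not show that their slopes differ. In the MRE11 complex Rad50 and Nbn rose, whereas Mre11a had a slope of 0.06 (95% interval -0.19 to 0.31). The nuclease gene Exo1 had 0.00 (-0.32 to 0.33). Among the end-protection genes, Trp53bp1 was the steadiest of all tested members, between 2.38 and 3.40 in every tumor (SD 0.30), with a slope of 0.01 (-0.15 to 0.18). Mad2l2 had -0.29 (-0.57 to -0.01). The 3 RPA genes had overlapping intervals, with slopes of -0.07 (Rpa1, -0.43 to 0.29), -0.23 (Rpa2, -0.53 to 0.07) and 0.05 (Rpa3, -0.32 to 0.42). Parp1 had -0.23 (-0.54 to 0.09). These differences between members were not themselves tested.

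Mki67 is only 1 reading of proliferation, and over all 23 tumors it parted from others. Its relations within sets of tumors were closer and are given below. Mean z-scores were made from 21 mitosis genes and from 20 DNA replication genes. These 2 scores followed each other (Pearson's r = 0.892, permutation p = 1e-05, the smallest the 100000 permutations can give, Spearman's rho = 0.825). Mki67 had r = 0.265 with the mitosis score (permutation p = 0.219, rho = 0.386) and r = 0.0268 with the replication score (p = 0.904, rho = 0.156). The adjusted values over the 6 relations examined were 3e-05, 0.34 and 0.904. After omission of the 2 tumors most distant from the median of the measure on the x axis, r was 0.792, 0.349 and 0.209.

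On the mitosis score 6 members rose and none fell, beside 4.20% of all genes that rose and 0.616% that fell. They were Rpa3 (slope 0.60), Rad54b (0.55), Parp1 (0.51), Rpa2 (0.49), Exo1 (0.45) and Mre11a (0.40), with limma adjusted p between 0.013 and 0.0462. At an unadjusted p under 0.05 there were 12 members, beside 21.2% of all genes. On the replication score 11 rose and none fell, beside 9.75% and 1.50% of all genes. They were the same 6 with Rpa1 (0.59), Fanca (0.56), Rad54l (0.48), Chek2 (0.45) and Mad2l2 (0.39). At an unadjusted p under 0.05 there were 14 members, beside 29.1% of all genes. The median slope of the members was 0.26 on the mitosis score and 0.34 on the replication score, beside 0.08 and 0.11 over all genes. X1515T (-2.31) and X1418T (-1.32) had the lowest mitosis scores, and the fits on the scores were not repeated without them. Parp1, Rpa2, Rpa3, Rad54b, Exo1 and Mre11a all had their lowest value in 1 of these tumors or in both. Exo1 was listed at 0 in both, and also in X1463T2. Mre11a was lowest in X1515T (1.67) but was 2.89 in X1418T, against a median of 2.83.

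No member that passed with Mki67 passed with either score. Rif1 had a slope of 0.10 on the mitosis score (SE 0.20, limma adjusted p = 0.8) and -0.15 on the replication score (SE 0.19, limma adjusted p = 0.623). Rpa2 and Parp1 had negative slopes on Mki67 that did not pass, and both rose with both scores. Xrcc3 was the only tested member with a negative slope on the mitosis score (-0.23, SE 0.16, limma adjusted p = 0.399).

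**Figure D2:**
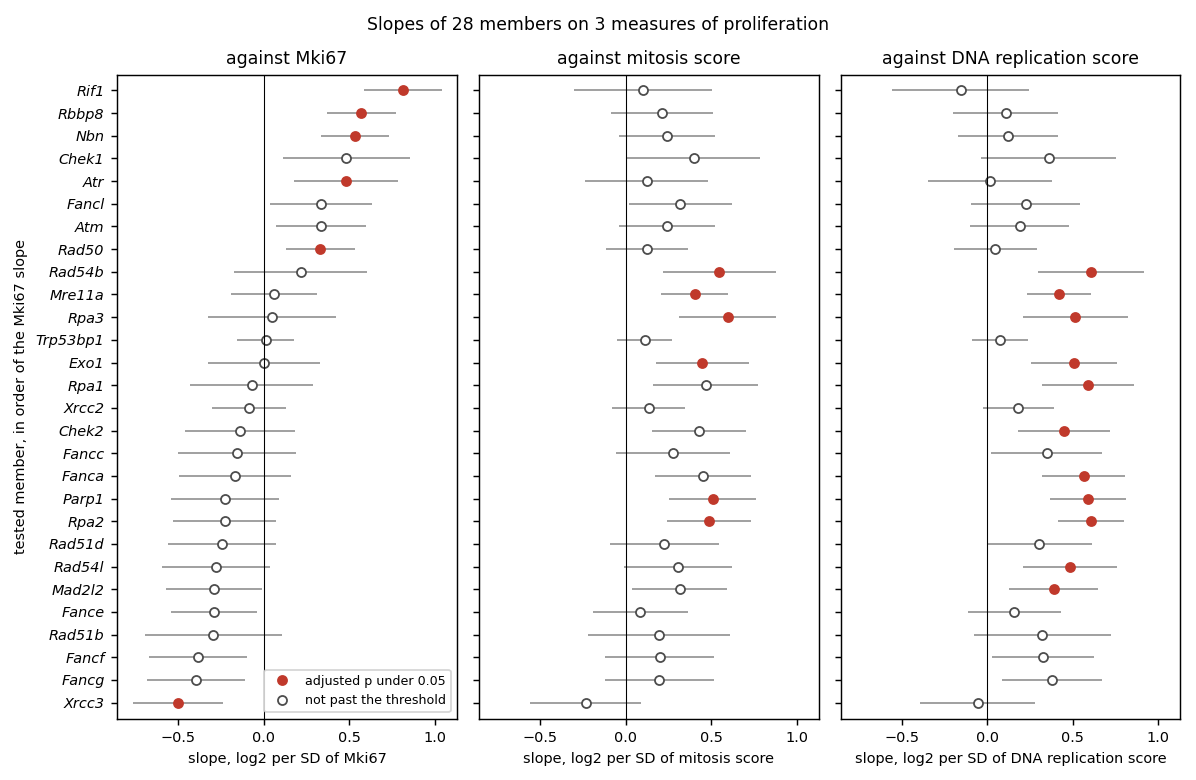
Slopes of the 28 tested members (rows) on Mki67, the mitosis score and the DNA replication score (panels), in log2 units per SD of the predictor, with 95% intervals as lines. Filled points passed an adjusted p of 0.05, and the filled points of the left panel are open in the others.

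The relation to Mki67 moved with the base composition of the transcripts. For each tumor a GC balance was taken as the deviation of the highest GC decile of genes minus that of the lowest. It was 1.66 in X606T and 1.48 in X493T2, the highest 2, and Mki67 was inversely related to it (r = -0.845, permutation p = 1e-05, rho = -0.67, adjusted p = 3e-05). Without X606T and X738T, r was -0.759. Over all genes, the median Mki67 slope ran from 0.32 in the lowest GC decile to -0.30 in the highest. Of the members with a GC content under 45%, all 9 had a positive slope. Between 45% and 50%, 4 were positive and 5 negative, and at 50% or more all 10 were negative.

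When each tumor was centred within 50 bins of GC content, a step added after seeing the data, 1.84% of genes rose with Mki67 (220) and 0.534% fell (64). Among the members Rif1 (slope 0.49, SE 0.10, limma adjusted p = 0.00877) and Nbn (0.45, SE 0.09, limma adjusted p = 0.0058) still rose. Rbbp8 had 0.29 (limma adjusted p = 0.0688), Rad50 0.26 (0.115), Atr 0.19 (0.547) and Xrcc3 -0.27 (0.287). On the mitosis score after this centring, Parp1, Rpa2 and Mre11a rose and none fell, beside 2.52% and 0.853% of all genes. On the replication score these 3 rose with Rpa1, Fanca and Rad54b and none fell, beside 2.24% and 0.694%.

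**Figure D3:**
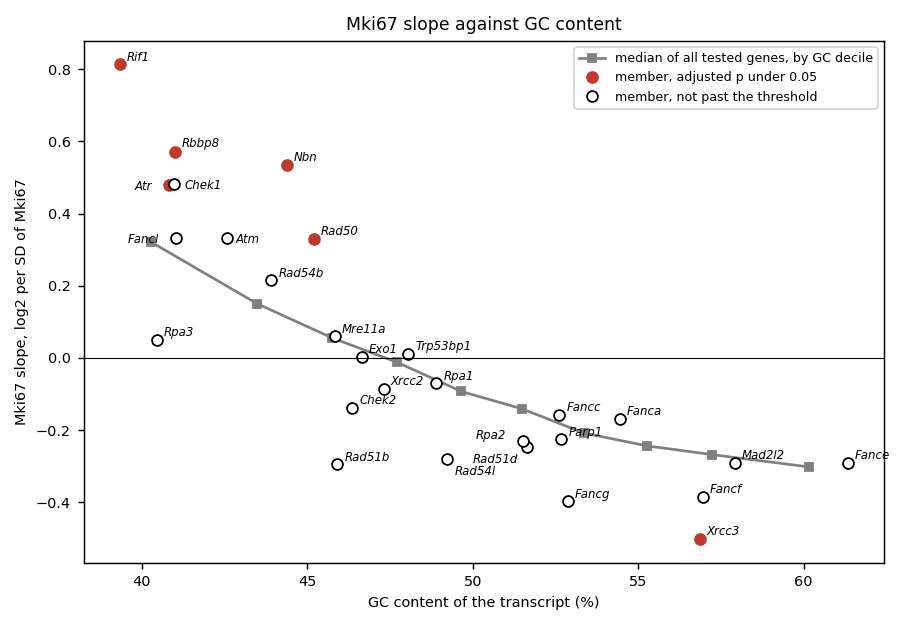
Mki67 slope (log2 per SD of Mki67) against the GC content of the transcript (%) for the 28 tested members (circles, filled where the adjusted p is under 0.05) and the median of all tested genes in each GC decile (squares). Members follow the falling line, and Rif1, Rbbp8 and Nbn are among those above it.

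A second measure also moved with Mki67. The immediate-early genes, induced within minutes of a stimulus, split the tumors into 8 with a low score (X606T, X738T, X493T1, X493T2, X520T, X4351T, X2265T and X437T) and 15 with a high score, with no tumor between -0.76 and 0.27. The 5 tumors with the lowest Mki67 were all among the 8, and 16 of the 28 early genes rose with Mki67. Within the 15 tumors Mki67 and the mitosis score had r = 0.705 (permutation p = 0.00304, adjusted 0.00912), and within the 8 r was 0.718. Mki67 and the replication score had r = 0.641 within the 15 (permutation p = 0.00996, adjusted 0.0199) and r = 0.476 within the 8. Mki67 and the GC balance had r = -0.385 within the 15 (permutation p = 0.155) and r = -0.874 within the 8.

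Between these sets of tumors the ranges of the members overlapped, which was not counted over all genes. Medians differed in both directions. Rpa2 had a median of 4.06 over the 8 tumors and 2.84 over the 15, and Rif1 had 0.97 and 2.34. Nbn ran from 0.84 to 3.61 over the 8 tumors with a low score, and from 2.13 to 3.55 over the 15 with a high one. Rif1 ran from 0 to 3.18 over the 8 and from 1.63 to 3.16 over the 15. Within the 15 tumors limma called no gene with Mki67, in either direction (0.00%), though 14.6% of genes (1761) had an unadjusted p under 0.05, and so did 6 members (Atm, Chek2, Fancl, Nbn, Rpa1 and Rpa2), all with positive slopes. There Rif1 had a slope of 0.15 (SE 0.13), Rbbp8 0.13 (SE 0.12) and Nbn 0.24 (SE 0.10). With the early score as a covariate over all 23 tumors, Rif1, Nbn, Rbbp8 and Fancl rose (limma adjusted p between 0.00387 and 0.0397), and none fell, beside 2.54% and 0.125% of all genes. Of cell type markers, no epithelial (10 tested), fibroblast (10) or macrophage (9) gene passed with Mki67, while 2 of 9 endothelial markers (Tie1 and Esam) and all 3 skeletal muscle markers tested fell. No T or B cell marker passed the filter, and none of 4 erythroid markers was called. The part of these measures in the slopes was not tested.

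Other genes of the pathway were listed with earlier results known. Of 28 tested homologous recombination and Fanconi genes outside the members, 1 rose with Mki67 (Wrn) and 2 fell (Swsap1 and Recql5). On the mitosis score 7 rose, and on the replication score 14, among them Brca1 and Bard1. Of 14 tested end joining and other end-protection genes, Xrcc4 and Parg rose with Mki67 and none fell, and of 19 checkpoint and damage signalling genes, Brcc3 and Wee1 rose and none fell. With GC bins centred, none of these genes was called with Mki67 except Wee1, and of the homologous recombination and Fanconi genes 5 rose on each score, Brca1 among them on the replication score.

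Among the members, pairwise correlations across the 23 tumors had a median of 0.26, beside 0.04 over all pairs of tested genes, and 2.65% of the 378 pairs reached 0.7, beside 1.14%. The points share their libraries, and genes of like GC content vary together here. The highest were Nbn with Rbbp8 (0.82), Rpa2 with Parp1 (0.80) and Exo1 with Parp1 (0.76). Within complexes, Rad50 and Nbn had 0.71 but Mre11a had 0.06 with Rad50 and 0.29 with Nbn. Rif1 had 0.12 with Trp53bp1 and -0.35 with Mad2l2, while Trp53bp1 and Mad2l2 had 0.44. Rpa2 had 0.64 with Rpa1 and 0.54 with Rpa3, and Rpa1 had 0.17 with Rpa3. Pairs of the tested Fanconi core genes ran from 0.03 (Fancf with Fancl) to 0.64 (Fanca with Fancg). After the GC centring the median was 0.17, beside 0.001 over all pairs, and 0.529% of the members' pairs reached 0.7, beside 0.405%. Nbn with Rbbp8 and Rpa2 with Parp1 were then at 0.66, and Exo1 with Parp1 at 0.76. Rif1 had 0.33 with Trp53bp1 and 0.01 with Mad2l2 at this setting, and Mre11a had -0.23 with Rad50.

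Promoter windows from RefSeq (build GRCm38.p6, 250 bases before to 50 after the start) were matched for 26 of the 35 members. The E2F letters TTTCCCGC, TTTGGCGC, TTTCGCGC or TTTGCCGC, the box CCAAT and the cell cycle homology letters TTTGAA were searched on both strands. Of all 32851 windows, 2.26% held an E2F match, 37.4% CCAAT and 17.9% TTTGAA. These shares are per window, whereas a member was counted where any of its windows held the match. Of the 11 members that rose with the replication score, 9 had a window. Of these, 8 held CCAAT, 1 (Chek2) E2F letters and 0 TTTGAA. Of the 17 other members with a window, 10 held CCAAT, 2 E2F letters and 1 TTTGAA. The Mki67 window held 3 CCAAT and 2 TTTGAA matches.

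The 150 bases before the start are shown for Rpa2, Mre11a and Parp1, the members that rose with both scores also after GC centring, and for Xrcc3, the member that fell with Mki67. Capitals mark CCAAT on either strand (ATTGG on the strand shown). A match is a description of the letters and not a bound site.
Rpa2 (chr4:132768210-132768359, plus strand): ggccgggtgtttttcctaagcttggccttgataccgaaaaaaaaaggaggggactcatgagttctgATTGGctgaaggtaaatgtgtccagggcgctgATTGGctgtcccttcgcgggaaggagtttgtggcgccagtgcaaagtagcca
Mre11a (chr9:14784504-14784653, plus strand): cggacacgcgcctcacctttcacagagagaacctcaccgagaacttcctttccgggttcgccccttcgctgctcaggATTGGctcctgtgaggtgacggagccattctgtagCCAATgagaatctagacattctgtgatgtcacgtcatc
Parp1 (chr1:180568741-180568890, plus strand): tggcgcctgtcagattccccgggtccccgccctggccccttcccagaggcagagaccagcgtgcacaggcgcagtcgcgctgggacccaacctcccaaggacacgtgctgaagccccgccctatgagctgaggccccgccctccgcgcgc
Xrcc3 (chr12:111813880-111814029, minus strand): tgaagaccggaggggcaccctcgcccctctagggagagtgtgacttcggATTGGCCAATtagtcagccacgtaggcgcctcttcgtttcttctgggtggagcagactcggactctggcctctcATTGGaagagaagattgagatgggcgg

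In this stretch Rpa2, Mre11a and Xrcc3 hold CCAAT and Parp1 does not. Of the 9 members with a window that rose with the replication score, only Parp1 held no CCAAT in any window. A relation between the motif and the slopes was not tested.

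Single-tumor gains and losses were read as a gap of 1 or more on the log2 scale between the highest or lowest tumor and the next, with no test. Of the 28 tested members 4 had a gain and 1 a loss, beside 6.68% and 3.89% of all tested genes. After the Mki67 trend was taken out, the same 4 gains and 1 loss remained, beside 6.52% and 3.79%.

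Rad51b, whose protein forms a complex with that of Rad51c, had the widest gap. It was 4.60 in X493T1, 1.53 in the next tumor, X493T2, and 0.84 at the median. The 6 tumors with the lowest values were listed at 0. X493T1 and X493T2 share a title number, and no other tested member differed as much between them. Rad51b lies on chromosome 12 (79297282 to 79814690, plus strand, GRCm38). Its 5 tested neighbours on each side were not raised with it, with a median deviation of -0.58 from the median tumor after centring tumors on their medians. The next genes on the 3' side, Zfp36l1 (4.62, against a median of 6.58 over all tumors) and Actn1 (4.41, against 5.96), were also low in X493T1, and Zfp36l1 was at its lowest of all tumors there. A gene-level FPKM does not show which exons or transcripts carry the reads.

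Rpa3 was 7.63 in X149T1, 6.23 in the next tumor and 5.21 at the median. All 10 neighbours, 5 on each side, had their highest value of the 23 tumors in X149T1, with a median deviation of 2.49. They include Asns, the asparagine synthetase gene, at 9.25 against a median of 4.65 over all tumors. Genes deviating by 1 or more ran on without a break over 36 tested genes of chromosome 6, from Samd9l to Cftr (3372257 to 18322768, 14.95 Mb), and 24 of them were highest in X149T1. Of all tested genes 1.69% were highest in that tumor. The gain of Rpa3 was thus shared by its chromosomal stretch.

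Rad54b, a DNA translocase of strand exchange, was 4.12 in X149T2, 2.75 in X2265T and 1.05 at the median. Of its 10 neighbours 8 were highest in X149T2, among them Tmem67 (4.03, against 0.95 at the median), Esrp1 and Ints8, with a median deviation of 1.90. The run of genes deviating by 1 or more held 16 genes of chromosome 4 (10874498 to 12983553, 2.11 Mb), of which 14 were highest there. Of all tested genes 6.69% were highest in X149T2. In the annotation Fsbp overlaps Rad54b on the same strand and Gm11832 on the other, so reads of these genes may be counted with it. In X149T1, which has the same title number, Rad54b was 0.58. No other tested member differed as much between that pair.

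**Figure D4:**
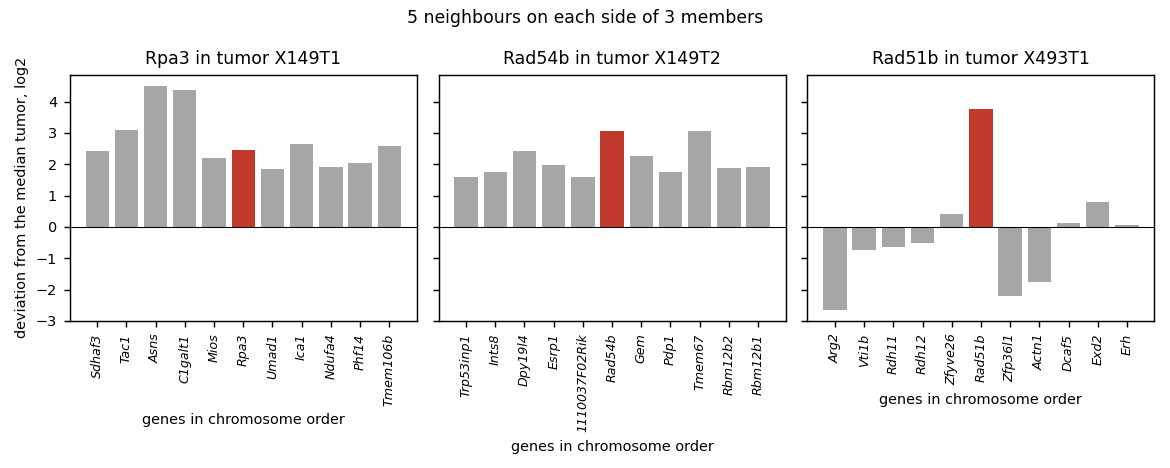
Deviation from the median tumor (log2, tumors centred on their medians) of Rpa3 in X149T1, Rad54b in X149T2 and Rad51b in X493T1 (dark bars) and of the 5 tested genes on each side in chromosome order (light bars). All neighbours of Rpa3 and Rad54b lie at 1.58 or more, while the bar of Rad51b stands alone between lower ones.

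Exo1 was 2.97 in X2265T, 1.79 in X493T1 and 0.92 at the median. Its neighbours had a median deviation of 0.41, and 2 of the 10 were highest in that tumor. X2265T also had the highest mitosis score of the 23 (1.13), and with that score as predictor the Exo1 residual no longer stood 1 or more above the next. With tumors centred on their medians the gap of Exo1 was 0.96, and with GC bins centred 0.88, which left 3 gains in each. At each of these settings 6.90% of all tested genes had a gain. The 1 loss was that of Rpa3 in X1515T, at 2.80, against 4.06 in the next lowest tumor, X1418T. X1515T had the lowest mitosis score (-2.31), its neighbours of Rpa3 had a median deviation of -0.54, and in the residuals from the mitosis score X1515T was no longer the lowest tumor for Rpa3. With that predictor the member with a loss was instead Fancg in X147T, and Chek1 in X1418T joined the gains. Of all tested genes 3.77% then had a loss and 6.79% a gain. Chek1 lay in a run of 4 genes of chromosome 9 deviating by 1 or more (36708482 to 37224700, 0.52 Mb), and all 4 were highest in X1418T.

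**Figure D5:**
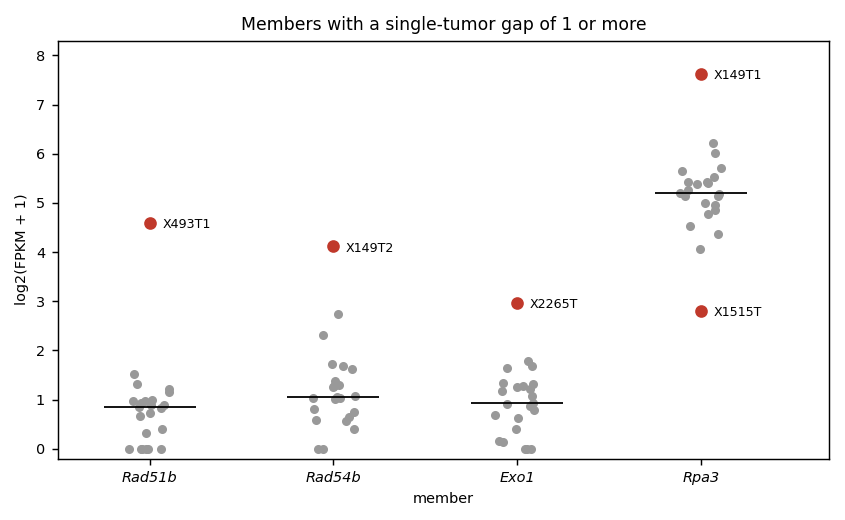
Values (log2(FPKM + 1)) of the 4 members with a single-tumor gap of 1 or more, each point a tumor, horizontal lines the median of 23. The named tumors (dark) lie apart from the rest, Rpa3 both above (X149T1, 7.63) and below (X1515T, 2.80).

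No end-protection gene had such a gap at this setting. Rif1 was listed at 0 in X606T and was 0.14 in X738T, and Mad2l2 was lowest in X370T at 1.80, with X1463T2 next at 2.0. Fancg was 0.03 in X147T, 0.67 in the next tumor and 1.59 at the median, and Fanca was listed at 0 in X1310T1, with 0.64 next and 1.92 at the median. With a pseudocount of 0.1, which spreads values near 0, the low values of Rif1, Fancg and Fanca passed a gap of 1, and that of Mad2l2 did not. At that setting 4 of the 28 members had a loss, beside 13.15% of all tested genes. In X147T, 3 of the 10 neighbours of Fancg were at their lowest too, with a median deviation of -1.04.

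Whole tumors also stood apart over the members. The median deviation of the tested members from their own medians was lowest in X1515T (-0.79) and highest in X493T1 (0.67) and X2265T (0.65), where that of all tested genes was -0.18, 0.16 and 0.17. Fance, Chek2, Mre11a, Rpa3 and Parp1 were each lowest in X1515T, and 6 members (Rad51b, Xrcc2, Rad54l, Fancg, Chek2 and Parp1) were highest in X493T1. With tumors centred on their medians, Fancc, Chek2, Mre11a, Rpa3 and Parp1 were lowest in X1515T, beside 7.28% of all tested genes. At that setting only Rad51b, Xrcc2, Fancg and Parp1 were highest in X493T1, beside 5.57%. Between tumors with the same title number the median absolute difference of the tested members was 0.31 for X493T1 and X493T2, 0.46 for X1310T1 and X1310T2, 0.54 for X149T1 and X149T2, and 0.59 for X1463T1 and X1463T2. Over the 249 other pairs of tumors it ran from 0.23 to 1.51, with a median of 0.67.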

How the data were processed

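RNA from 23 tumors was analysed. The authors deposited 1 table of log2(FPKM + 1) for 14535 genes, and the submitters' processing notes name Trimmomatic 0.35, TopHat2 2.0.13, Cufflinks 2.2.1 and the build mm10. In its methods section the study gives a different TopHat release, so the version is open. The use of strand in library preparation and counting is not stated in them. Symbols were matched to GENCODE mouse release M21 on GRCm38, and 99.2% matched. The members and lists were chosen with earlier results of these data known. Genes averaging an FPKM of at least 1 were tested with limma 3.58.1 in R 4.3.3, with trend, on the deposited log2 FPKM values (pseudocount 1), so fold changes of low genes are understated. The fit was tested on simulated data. Correlations used 100000 permutations, two-sided. Values in the text go to the members with a gap, the members not past the threshold, the largest slopes and the extremes of each role. Alternatives were another pseudocount and filters, centring, other predictors, a covariate, the title number as a block and fewer tumors.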

Additional observations from a re-analysis of the deposited data

How the results depend on the processing

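The 1 labelled group leaves no groups to pair. With the title number as a replicate block, added after seeing the data, 713 genes rose and 531 fell with Mki67, and the calls of the members did not change (5 and 1). GC and length bins, both scores with GC bins and the 15 tumors with a high early score were alternatives chosen after seeing the data. With Mki67, genes called higher and lower numbered 852 and 807, and members 5 and 1. They were 876 and 516 (7 and 1) with a pseudocount of 0.1, 855 and 827 (6 and 2) without a filter, 589 and 661 (2 and 0) at a mean FPKM of 5 or more, and 1253 and 772 (7 and 2) with centred tumors. Chek1 and Atm passed with a pseudocount of 0.1 and with centred tumors, Fancg with centred tumors (limma adjusted p = 0.033) and Fancf and Blm without a filter (0.0496 and 0.00265). The mitosis score gave 505 and 74 (members 6 and 0), the replication score 1172 and 180 (11 and 0), and with GC bins centred these were 301 and 102 (3 and 0) and 268 and 83 (6 and 0). The early score as covariate gave 306 and 15 (4 and 0), 1 tumor per title number 476 and 128 (3 and 0, without Atr, Rad50 and Xrcc3), omission of X606T and X738T 118 and 41 (1 and 0, Rif1 with limma adjusted p = 0.0302), GC bins 220 and 64 (2 and 0), length bins 819 and 272 (5 and 1), and the 15 tumors 0 and 0 (0 and 0). Leaving out each tumor in turn gave 408 to 961 higher and 203 to 1416 lower genes, and 3 to 6 and 0 to 3 members. Without X606T the counts were 408 and 203, without X493T2 582 and 286, without X493T1 686 and 380, without X520T 718 and 462, without X738T 673 and 438, and without X437T the lower count was 1416. Rif1, Rbbp8 and Nbn passed in all 23 of these fits, while Atr missed the threshold in 6, Rad50 in 2 and Xrcc3 in 1 (X606T). Against a slope of the other sign on Mki67, the replication score gave 0.45 for Chek2, 0.56 for Fanca, 0.39 for Mad2l2, 0.59 for Parp1, 0.48 for Rad54l, 0.59 for Rpa1, 0.61 for Rpa2 and -0.15 for Rif1. With GC bins these were 0.42 for Fanca, 0.43 for Parp1, 0.49 for Rpa1, 0.44 for Rpa2, -0.0085 for Rad50 and -0.0276 for Rif1. The mitosis score gave 0.51 for Parp1 and 0.49 for Rpa2, and 0.41 and 0.38 with GC bins. Gaps at a mean FPKM of 5 or more numbered 454 gains (5.22% of genes, 1 of 10 members). With a pseudocount of 0.1 losses numbered 1583 (13.15%, 4 members) in values and 1531 (12.72%, 3 members) in residuals. Causes were not tested beyond these values. Depth is unknown, which limits the low members most.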
